A study of Mus musculus with 30 samples.

Results

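A set of 44 genes that act in DNA replication and in mitosis was followed across treatment and time in mouse macrophages, 24 of them S-phase genes and 20 mitotic genes. Members were the rows of the expression table whose gene symbol was on a named list, and for a symbol with several transcripts the row with the highest mean was kept. The 44 members stand among 24761 gene symbols in the table. All 44 reached 1 RPKM (reads scaled to transcript length and to library depth) in at least 3 libraries and were tested.

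The cells were bone marrow-derived macrophages of wild-type (WT) C57Bl/6 mice, grown with M-CSF and used 6 days after plating. They received the vehicle DMSO or 1 µM metaproterenol hemisulfate (MPH), an agonist of the β2 adrenergic receptor, for 2 h, and then lipopolysaccharide (LPS), labelled 100 ng/µL, for 0, 1 or 2 h. The 0 h libraries had the pretreatment and no LPS. DMSO was given to 7 cultures (r1, r2, UKD and D3 to D6) and MPH to 3 (M2, M3 and M4), each with 1 library per time, 30 in all. A later time of 6 h, which the design mentions, was not analysed here. The labels do not say that cultures came from separate animals, so p-values measure the spread between these samples, which may be technical.

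Before S phase, Cdc6 and Cdt1 load the MCM helicase onto replication origins, and cyclin E with its kinase and the GINS complex help start DNA synthesis by polymerases that the PCNA clamp holds on the template. Transcription of many of these genes is driven by E2F factors at the entry into S phase, whereas genes of mitosis are transcribed later, in G2, under complexes that read a promoter element called CHR, often with CCAAT boxes. M-CSF drives the proliferation of macrophages in culture, and LPS is known to stop it.

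Approximate depth, estimated from the steps between low values, was 5.38 to 92.12 M counted reads per library (median 41.3 M), with 3 libraries under 10 M. All 10 macrophage markers were found, with summed levels of 3770 to 7270 RPKM over the 30 libraries. The progenitor markers summed to 4.77 to 28.0 RPKM and B cell markers to at most 1.59 RPKM, with T and NK, erythroid and mast cell markers at most 1.22 RPKM and stromal markers at most 2.62 RPKM. The 1 h library labelled M4 stood apart: the mean of its S-phase genes, on the log2(RPKM + 0.5) scale used throughout, differed from that of the same culture at 0 h by 0.20, whereas the difference was -0.52 to -0.14 in the other 9 cultures. In these bulk libraries, fewer cells in a phase of the cycle and less RNA per cell cannot be told apart.

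Every member was expressed in resting macrophages, at levels that covered a wide range per unit of transcript length. Among S-phase genes the highest mean over the 30 libraries was that of Pcna, the sliding clamp of DNA polymerase, at 101 RPKM (58.1 to 161), followed by the helicase subunit gene Mcm6 at 43.6 RPKM. Among mitotic genes, Top2a, the topoisomerase that untangles chromosomes, had a mean of 46.7 RPKM (23.2 to 69.9) and Mki67, which encodes the proliferation antigen Ki-67, one of 36.3 RPKM. The lowest means were 1.87 RPKM for the origin-loading factor gene Cdc6 and 6.72 RPKM for the centromere motor gene Cenpe. For the 41 members with a transcript length, the smallest value stood on about 21 reads, for Rfc4 in the 1 h library of D6.

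Cultures of the same treatment differed in the level of the whole set, for S-phase and mitotic genes alike. At 0 h the mean of the S-phase genes ran from 3.52 to 4.65 over the 7 DMSO cultures and that of the mitotic genes from 3.75 to 4.55. The median SD between DMSO cultures at 0 h was 0.41 for S-phase members and 0.39 for mitotic members, against 0.27 for all 10212 genes tested in the DMSO libraries. Of the variance among the 21 DMSO libraries, differences between cultures took a median of 69.2% for S-phase members and 71.3% for mitotic members, against 60.0% for all genes, and differences between times took 24.1%, 23.7% and 25.3%. Top2a lay at one end of this range, with 94.2% between cultures and 4.59% between times. At the other end were Cdc6, with 34.2% and 61.1%, and Cdc20, with 34.9% and 51.9%. The members thus differed mostly between cultures, and a few mostly with time after LPS.

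**Figure D1:**
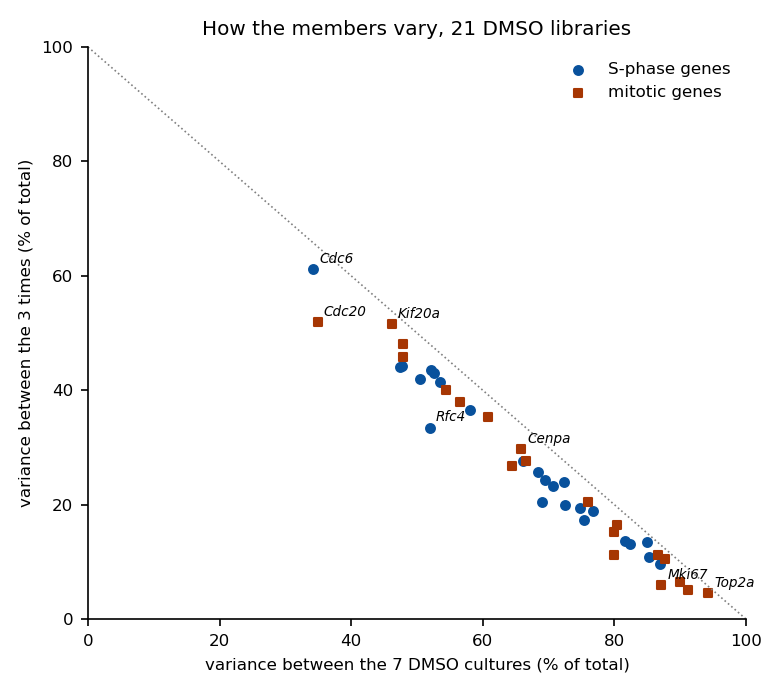
Share of the variance of each member over the 21 DMSO libraries that lay between the 7 cultures (x axis, percent) and between the 3 times (y axis, percent), on the log2(RPKM + 0.5) scale. Cdc6, at 34.2% and 61.1%, and Cdc20, at 34.9% and 51.9%, stand at the upper left, and Top2a, at 94.2% and 4.59%, at the lower right.

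Promoter sequences are shown for 5 members whose responses to LPS differed most in kind below. Cdc6 and Mcm6 are S-phase genes that fell under both pretreatments, and Cdc20 is a mitotic gene that fell under DMSO. The responses of Mki67 and Cenpe differed between pretreatments only in a fit that compares each culture with itself, and not without that pairing. The sequences come from RefSeq (GRCm38.p6) and cover the 150 bases before the start of the gene. They lie at chr11:98908001-98908150 on the + strand for Cdc6, chr1:128359706-128359855 on the - strand for Mcm6 and chr4:118437344-118437493 on the - strand for Cdc20. Those of Mki67 and Cenpe lie at chr7:135716380-135716529 on the - strand and chr3:135212413-135212562 on the + strand. For all but Mcm6, bases after the start matched an annotated transcript of the gene. Capitals mark matches, on either strand, to an E2F motif (TTTCCCGC, TTTGGCGC, TTTCGCGC or TTTGCCGC), a CHR motif (TTTGAA or TTCGAA) or a CCAAT box.
Cdc6: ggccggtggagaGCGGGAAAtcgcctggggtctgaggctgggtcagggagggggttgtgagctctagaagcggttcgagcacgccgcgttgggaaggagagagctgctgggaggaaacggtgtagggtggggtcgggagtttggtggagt
Mcm6: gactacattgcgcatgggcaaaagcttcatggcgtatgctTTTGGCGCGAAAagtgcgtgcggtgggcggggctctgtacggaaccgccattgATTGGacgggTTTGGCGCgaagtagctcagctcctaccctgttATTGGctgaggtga
Cdc20: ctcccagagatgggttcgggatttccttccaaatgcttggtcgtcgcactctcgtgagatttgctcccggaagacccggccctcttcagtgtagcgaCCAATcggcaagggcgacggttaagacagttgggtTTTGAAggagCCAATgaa
Mki67: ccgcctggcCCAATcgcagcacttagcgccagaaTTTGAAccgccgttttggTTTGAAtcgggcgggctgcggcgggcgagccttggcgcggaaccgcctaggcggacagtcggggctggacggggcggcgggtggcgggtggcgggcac
Cenpe: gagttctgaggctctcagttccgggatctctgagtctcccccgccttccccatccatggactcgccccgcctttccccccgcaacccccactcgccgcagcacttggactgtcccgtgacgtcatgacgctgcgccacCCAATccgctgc
In Mcm6 the first run of capitals holds a pair of E2F matches that overlap. Cdc20 has 1 CHR match 18 bases before the start, between 2 CCAAT boxes, and Mki67 has 2 CHR matches in this stretch, whereas Cenpe has 1 CCAAT box and no CHR match in it.

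Promoters of 300 bases (250 before and 50 after the start) were found for 37 of the 44 members, and those of Kif20a, Ccna2, Ccne2, Mcm4, Gins2, Tpx2 and Aurkb were not searched. An E2F match was present in 9 of 21 S-phase members (42.9%) and 1 of 16 mitotic members (6.25%), against 2.32% of all 27025 promoters of that length. A CHR match was present in 12 of 16 mitotic members (75.0%) and 4 of 21 S-phase members (19.0%), against 19.4% of all promoters. A CCAAT box was present in 14 of 16 mitotic members (87.5%) and 12 of 21 S-phase members (57.1%), against 37.9% of all. In 1 member promoter matches of different motifs overlapped. The S-phase and mitotic lists, divided by function, thus also differed in which of these letters their promoters hold. A match is a description of sequence and not of a site in use. For Mcm5, Mcm6, Rfc4, Fen1, Lig1, Aurka and Kif11 the bases after the start did not match an annotated transcript of the gene.

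The response to LPS under DMSO was read in 7 cultures. At 2 h, 16 of 24 S-phase members and 12 of 20 mitotic members fell, and none rose (limma, adjusted p under 0.05 over all genes). In the same test 54.1% of all genes changed, 43.6% lower and 10.5% higher. The median log2 difference was -0.57 for S-phase and -0.48 for mitotic members, against -0.25 for all genes. Values were paired by culture, and with the culture as a block, which compares each culture with itself, all 24 S-phase members and 19 of 20 mitotic members fell, where 76.9% of all genes changed and 62% were lower. All 24 S-phase members and 19 mitotic members were lower at 2 h than at 0 h in 7 of 7 cultures, and the exception was Mki67. The share of all genes lower in 7 of 7 cultures was not counted.

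The largest falls among S-phase genes were those of Cdc6, Cdt1 and both cyclin E genes. Cdc6 lay at 1.25 to 4.69 RPKM at 0 h (median 2.92) and 0.306 to 1.51 RPKM at 2 h (median 0.582), a log2 difference of -1.53 (SE 0.28, adjusted p = 0.000176) on a scale that understates changes of genes this low. Cdt1, its partner in loading the helicase, lay at 9.26 to 39.7 RPKM (median 27.6) at 0 h and 2.68 to 10.5 RPKM (median 7.19) at 2 h, a log2 difference of -1.51 (SE 0.28, adjusted p = 0.000179). In both genes only the highest 2 h cultures reached the lowest 0 h cultures. Ccne2, which encodes a cyclin E, fell from 7.39 ± 4.06 to 2.89 ± 1.76 RPKM (SD, n = 7), a log2 difference of -1.24 (adjusted p = 0.00379). Ccne1, the other cyclin E gene, fell from 8.99 ± 3.20 to 4.38 ± 1.32 RPKM, a log2 difference of -0.93 (adjusted p = 0.0039). D4 had the highest values of both cyclins at each time, such as 16.3 RPKM of Ccne2 at 0 h, where the other DMSO cultures lay between 4.30 and 7.25 RPKM.

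The genes of the helicase and of DNA synthesis had smaller differences, some of which did not pass. Mcm6 lay at 42.8 to 72.1 RPKM (median 57.6) at 0 h and 27.1 to 55.9 RPKM (median 35.9) at 2 h, a log2 difference of -0.59 (SE 0.15, adjusted p = 0.00337). Mcm7 and Mcm3 also fell, by 0.53 and 0.50 on the log2 scale, while Mcm2, Mcm4 and Mcm5 had log2 differences of -0.55, -0.43 and -0.42 and passed only with the culture as a block. Prim1, the primase subunit that starts new strands, fell from 12.3 ± 3.21 to 7.37 ± 2.05 RPKM (log2 difference -0.70, SE 0.17, adjusted p = 0.00164). Rfc3, a subunit of the loader of the PCNA clamp, fell from 13.2 ± 2.89 to 8.24 ± 2.19 RPKM (-0.65, SE 0.15, adjusted p = 0.00134). Pcna itself lay at 93.0 to 161 RPKM (median 131) at 0 h and 80.1 to 121 RPKM (median 92.0) at 2 h, with broad overlap. Its log2 difference of -0.30 (SE 0.11, adjusted p = 0.0306) was the smallest of the S-phase list, and it passed in 4 of 7 fits that left out 1 culture. The flap endonuclease gene Fen1 (-0.60), the other clamp loader gene Rfc4 (-0.62), the nucleotide supply genes Tk1, Tyms and Rrm2 (-0.53, -0.37 and -0.59) and Uhrf1 (-0.81), which acts in the upkeep of DNA methylation, also fell. Pold1, Rrm1, Gins2, Lig1 and Pola1 had log2 differences of -0.65, -0.41, -0.36, -0.34 and -0.34 and passed only with the block.

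Among mitotic genes the smallest p-values at 2 h were those of Kif20a, Cdc20, Aurka, Bub1b, Plk1 and Cenpa. Kif20a, a kinesin of the late spindle, lay at 12.1 to 21.9 RPKM (median 16.7) at 0 h and 5.95 to 13.3 RPKM (median 9.55) at 2 h, a log2 difference of -0.82 (SE 0.13, adjusted p = 2.24e-05). Cdc20, the activator of the ubiquitin ligase APC/C that starts anaphase, lay at 13.3 to 24.7 RPKM (median 16.7) and then 7.50 to 13.2 RPKM (median 11.6), a log2 difference of -0.64 (SE 0.12, adjusted p = 0.000216). Cdc20 was the 1 member whose 0 h and 2 h groups did not overlap, against 16.4% of all genes. Bub1b, of the spindle checkpoint, fell from 16.7 ± 4.91 to 9.15 ± 3.34 RPKM (-0.86, SE 0.17, adjusted p = 0.000345). The kinase genes Plk1 and Aurka, which act in spindle assembly, fell from 15.1 ± 3.32 to 8.75 ± 1.99 RPKM (-0.75, adjusted p = 0.00196) and from 14.1 ± 3.20 to 8.45 ± 1.84 RPKM (-0.71, adjusted p = 0.000265). Cenpa, the histone H3 variant of centromeres, fell from 24.8 ± 6.85 to 16.7 ± 3.98 RPKM (-0.55, SE 0.14, adjusted p = 0.00228).

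Other mitotic members that fell were Ccna2 (-0.59), Aurkb (-0.57), Birc5 (-0.53), Kif11 (-0.52), Ccnb2 (-0.38) and Tpx2 (-0.37). Cenpe, Bub1, Cdk1, Nusap1, Prc1, Ccnb1 and Top2a had log2 differences of -0.43, -0.36, -0.30, -0.27, -0.26, -0.23 and -0.23 and passed only with the block. Mki67 did not pass in either fit: it lay at 22.5 to 51.0 RPKM (median 35.7) at 0 h and 22.6 to 56.0 RPKM (median 42.1) at 2 h, higher in 5 and lower in 2 of 7 cultures (log2 difference 0.08, SE 0.12, adjusted p = 0.572).

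Most genes were lower after LPS in these values, so the falls were also read against the typical gene. Scaling each library by its median ratio to the other libraries moved the median of all genes at 2 h under DMSO from -0.25 to -0.01. All 24 S-phase members stayed below 0 (median -0.31), and 17 of 20 mitotic members did (median -0.23). Without the block, 6 S-phase members then passed as lower (Cdc6, Cdt1, Rfc3, Prim1, Ccne1 and Ccne2), along with 5 mitotic members (Cdc20, Plk1, Aurka, Bub1b and Kif20a), where 18.6% of all genes were lower. With the block, 19 S-phase and 12 mitotic members were lower, where 31% of all genes were lower. Mki67 passed as higher in both of these fits, where 18.4% of all genes were higher without the block and 31% with it, with a log2 difference of 0.34 (adjusted p = 0.0216 without the block).

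**Figure D2:**
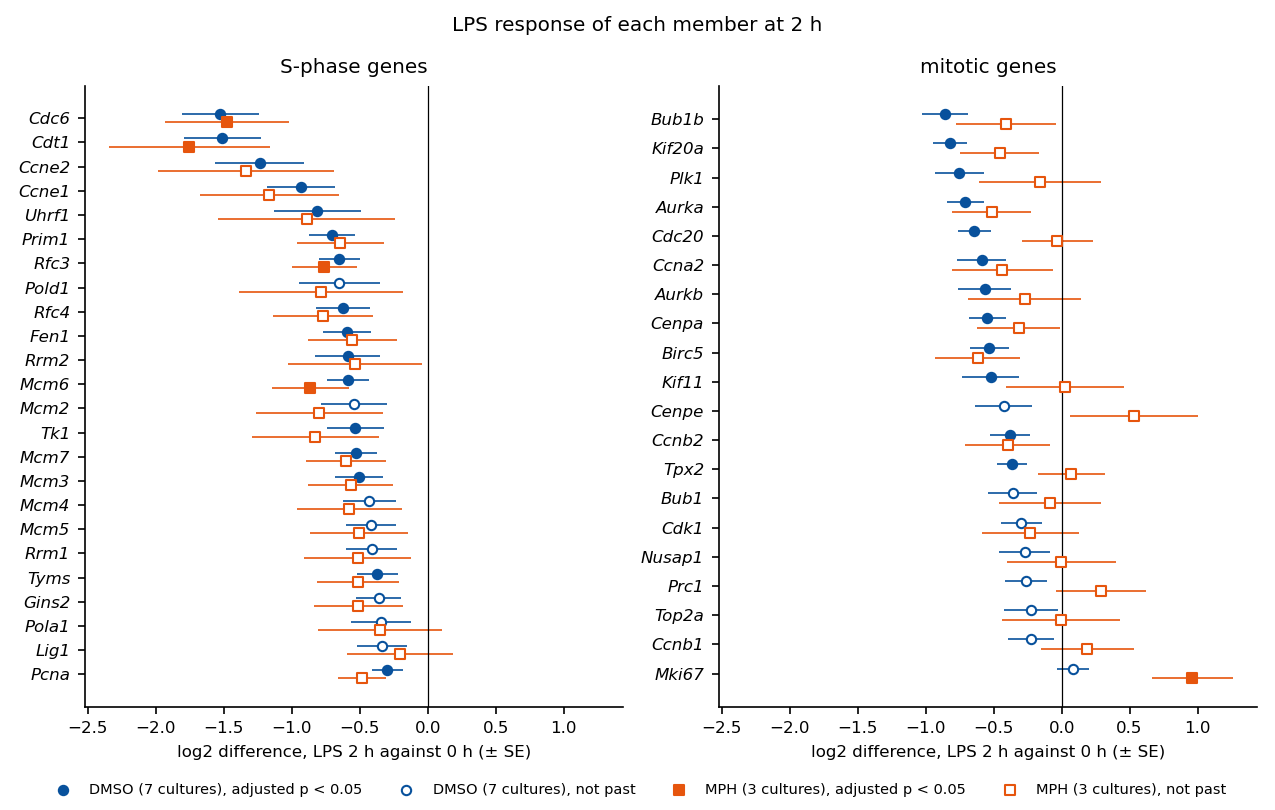
Log2 difference of each member at 2 h of LPS against 0 h under DMSO (7 cultures) and under MPH (3 cultures), with its SE; filled symbols passed the test over all genes without the culture block. Under DMSO 28 of the 44 members fell, while under MPH 4 S-phase members fell and Mki67 rose.

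At 1 h of LPS under DMSO 0 of 24 S-phase members passed and 1 of 20 mitotic members fell, where 20.3% of all genes changed and 15% were lower. The mitotic gene was Kif20a, at 12.9 ± 3.31 RPKM against 17.02 ± 3.93 RPKM at 0 h (log2 difference -0.40, SE 0.13, adjusted p = 0.03). With the culture as a block, 22 S-phase and 9 mitotic members fell and Mki67 rose by 0.23 on the log2 scale. In that fit 53.5% of all genes changed, 44.8% lower and 8.71% higher. The share lower was 91.7% of S-phase members and 45.0% of mitotic members, the latter near that of all genes. Rfc4 and Mcm6, with log2 differences of -0.41 and -0.31, had adjusted p = 0.151 and 0.166 without the block and 0.005 and 0.00147 with it. The median of the mitotic list at 1 h was -0.13 and turned to 0.03 after median-of-ratios scaling, while that of the S-phase list went from -0.26 to -0.11. Scaled but without the block, Kif20a no longer passed (adjusted p = 0.209), and Mki67 passed as higher in its place (0.39, adjusted p = 0.0291), where 4.99% of all genes were lower and 6.88% higher. With scaling and the block together, 3 S-phase members (Cdc6, Cdt1 and Ccne1) and 2 mitotic members (Birc5 and Kif20a) fell, and Mki67 and Cenpe rose. In that fit 27.6% of all genes changed, 13.4% lower and 14.3% higher. For each list these counts made up a share near or below that of all genes.

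Between 1 and 2 h of LPS under DMSO, Cdc6 and Cdt1 fell further, with 5 mitotic members. In that test 22% of all genes changed and 15.4% were lower. These were 2 of 24 S-phase members, a share below that of all genes, and 5 of 20 mitotic members, a share above it. Both lists together had a share near that of all genes. Cdc6 went from 2.10 ± 1.02 to 0.779 ± 0.474 RPKM (log2 difference -1.004, SE 0.28, adjusted p = 0.015) and Cdt1 from 16.1 ± 9.92 to 7.28 ± 2.71 RPKM (-0.96, SE 0.28, adjusted p = 0.0186). The mitotic members were Bub1b (-0.62), Aurka (-0.45), Kif20a (-0.43), Cdc20 (-0.36) and Tpx2 (-0.31), with adjusted p from 0.013 to 0.0478. With the block, 18 S-phase and 19 mitotic members fell, where 49.2% of all genes changed and 35.4% were lower. When the 3 shallow 1 h libraries were left out, no member passed without the block, where 13.8% of all genes changed.

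**Figure D3:**
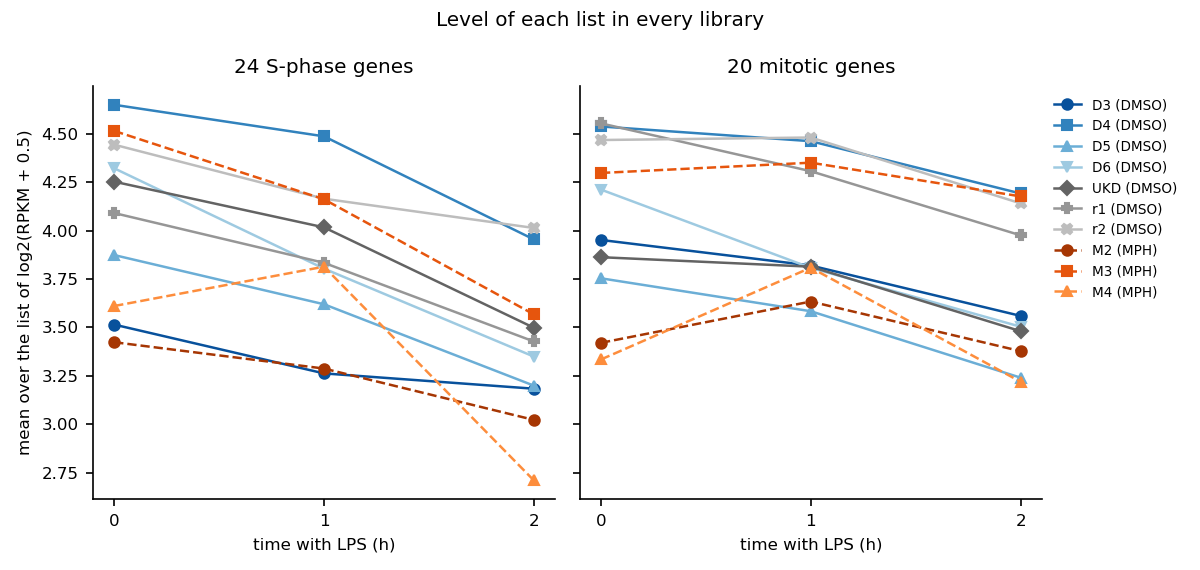
Mean of log2(RPKM + 0.5) over the 24 S-phase members and over the 20 mitotic members in each library, by hours of LPS, with 1 line per culture. In all 10 cultures the S-phase mean was lower at 2 h than at 0 h, with differences of -0.97 to -0.33, while the mitotic mean differed by -0.71 to -0.33 in DMSO cultures and by -0.12 to -0.04 in MPH cultures.

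Under MPH, Cdc6, Cdt1, Rfc3 and Mcm6 fell at 2 h of LPS, and Mki67 rose. These were 4 of 24 S-phase members (16.7%) and 1 of 20 mitotic members (5.0%), where 20.7% of all genes changed, 14.7% lower and 5.97% higher, so that the share of S-phase members that fell and the share of mitotic members that rose were near those of all genes. The median log2 difference was -0.62 for S-phase members and -0.12 for mitotic members, against -0.23 for all genes. After median-of-ratios scaling the S-phase median was -0.39, and the mitotic median turned to 0.10, with 12 of 20 members above 0. In that fit 1 S-phase member, Cdc6, passed as lower, where 5.71% of all genes did. The mean of the S-phase genes differed from that at 0 h by -0.40 in M2, -0.95 in M3 and -0.90 in M4, and that of the mitotic genes by -0.04, -0.12 and -0.12. No MPH culture had a mitotic difference as large as the smallest among DMSO cultures, -0.33 in r2.

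Cdc6 stood at 1.44, 3.86 and 1.58 RPKM in M2, M3 and M4 at 0 h and at 0.503, 0.540 and 0.281 RPKM at 2 h (log2 difference -1.48, SE 0.45, adjusted p = 0.0279). Cdt1 stood at 7.98, 27.1 and 21.3 RPKM and then at 3.08, 5.61 and 5.60 RPKM (-1.75, SE 0.59, adjusted p = 0.0429). Both genes were lower in each of the 3 cultures, as they were in each DMSO culture. Rfc3 fell from 11.8 ± 2.85 to 6.67 ± 0.435 RPKM (SD, n = 3), a log2 difference of -0.76 (adjusted p = 0.032). Mcm6 fell from 44.3 ± 13.8 to 24.5 ± 8.39 RPKM, a log2 difference of -0.86 (adjusted p = 0.0374). Pcna, at 96.8 ± 21.8 and then 68.3 ± 8.87 RPKM, had an adjusted p of 0.0582. Cdc6, Cdt1, Rfc3, Mcm6 and Pcna were the 5 members whose 0 h and 2 h groups did not overlap under MPH, all lower, where 33.4% of all genes did not overlap and 25.6% were lower without overlap. With the culture as a block, 23 S-phase members fell, all but Lig1, the DNA ligase gene, where 42.8% of all genes were lower. Without the block, leaving out 1 culture in turn left 2 of 7 fits with a call for Mcm6, Rfc3 and Cdt1 and 3 of 7 for Cdc6.

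Mki67 rose in every MPH culture, from 12.9 to 30.4 RPKM in M2, from 30.5 to 52.1 RPKM in M3 and from 17.5 to 33.5 RPKM in M4. The ranges overlapped only through M3 at 0 h and M2 at 2 h, and the log2 difference was 0.96 (SE 0.30, adjusted p = 0.0277; after median-of-ratios scaling 1.202, adjusted p = 0.00497, where 8.1% of all genes were higher). It passed in 5 of 7 fits that left out 1 culture. Cenpe, the kinesin that moves chromosomes to the spindle equator, went from 1.85 to 4.49 RPKM in M2, from 6.60 to 8.71 RPKM in M3 and from 2.66 to 2.96 RPKM in M4, and passed only with the block (0.53, SE 0.16, adjusted p = 0.0111). The block also called 6 of 20 mitotic members lower, Birc5, Aurka, Kif20a, Ccnb2, Ccna2 and Cdk1. In that fit 54.5% of all genes changed, 42.8% lower and 11.7% higher. The share of mitotic members that fell was thus below that of all genes. The 2 that rose with the block, Mki67 and Cenpe, made up a share near that of all genes. Cdc20, which had fallen by 0.64 under DMSO, had a log2 difference of -0.03 (SE 0.26, adjusted p = 0.953) under MPH.

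**Figure D4:**
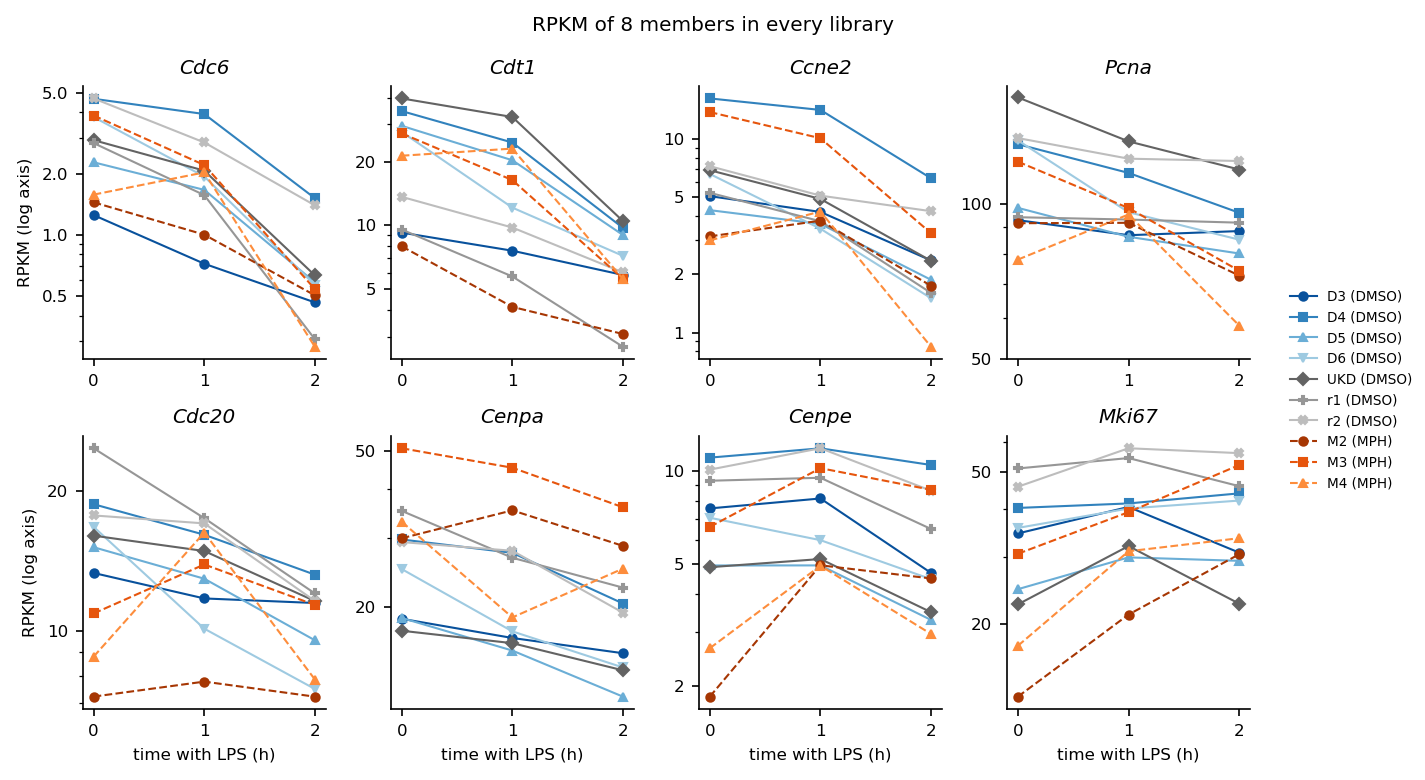
RPKM of 4 S-phase members and 4 mitotic members in every library by hours of LPS, on a log axis, with 1 line per culture and MPH cultures set apart from DMSO cultures. Cdc6 and Cdt1 were lower at 2 h than at 0 h in all 10 cultures, and Mki67 was higher at 2 h in all 3 MPH cultures.

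At 1 h of LPS under MPH 0 of 44 members passed, where 3.08% of all genes did (1016 genes had an unadjusted p under 0.05). The median was -0.10 for S-phase and 0.20 for mitotic members, against -0.09 for all genes, and 18 of 20 mitotic members lay above 0. Without the library labelled M4 these medians were -0.11 and 0.25, and with the culture as a block as well they were -0.26 and 0.11. Without M3 at all times the S-phase median was 0.03. With the block, 5 mitotic members rose (Ccnb1, Cenpe, Kif11, Prc1 and Mki67), where 12.1% of all genes changed and 4.66% were higher. Without the 1 h library labelled M4 the block called Cenpe and Mki67, with log2 differences of 0.81 and 0.51 (adjusted p = 0.0124 and 0.0127), where 12.5% of all genes changed and 4.65% were higher. Rfc3 and Cdt1, at -0.27 and -0.49 in the fit of all libraries, did not pass.

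Whether the LPS response differed between pretreatments was tested as the difference of the log2 responses in D3 to D6 and M2 to M4, MPH minus DMSO. Without the block 0 of 44 members passed at 1 h, where 0% of all genes did, and 0 at 2 h, where 0.107% did (83 and 318 genes had an unadjusted p under 0.05). With the culture as a block, Mki67 and Cenpe passed at 2 h, where 1.43% of all genes did and 0.762% were higher. The difference for Mki67 was 0.85 (SE 0.14 and adjusted p = 0.0079 with the block, SE 0.39 and adjusted p = 1 without it). It passed in all 7 fits with the block that left out 1 culture, with values from 0.73 to 0.95. For Cenpe it was 0.99 (SE 0.21, adjusted p = 0.0262 with the block), and it passed in 2 of those 7 fits. Without the 1 h library labelled M4, Kif11, Tpx2 and Prc1 passed as well with the block, at 0.58, 0.46 and 0.61, where 2.35% of all genes did and 1.3% were higher.

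The median difference of responses at 2 h was 0.39 for mitotic members, with 19 of 20 above 0, and -0.09 for S-phase members, against 0.02 for all genes. Leaving out 1 culture gave 0.28 to 0.47 and -0.24 to 0.02, the last without D3. At 1 h the medians were 0.43 and 0.19, against 0.05. Without the 1 h library labelled M4 they were 0.43 and 0.18, and with the block as well 0.30 and -0.01. Cdc20 had a difference of 0.58 at 2 h (SE 0.34, adjusted p = 1) and 0.76 at 1 h, and Tpx2, a spindle assembly factor, 0.46 and 0.48. For Mcm6 the difference at 2 h was -0.23 (SE 0.37) and for Pcna -0.13 (SE 0.23), both with adjusted p = 1. At 1 h Rfc4 stood at 0.53 and Pcna at 0.23. With the block 0 members passed at 1 h, where 0.195% of all genes did.

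The 0 h libraries, which enter all of these differences, give the effect of MPH alone. At 0 h 0 of 44 members passed between M2 to M4 and D3 to D6 (limma), where 0.869% of all genes did, and 6 members, all mitotic, had an unadjusted p under 0.05, as did 6.69% of all genes. Mitotic members lay lower with MPH, with a median of -0.51 and 18 of 20 below 0, and S-phase members had a median of -0.22 with 23 of 24 below 0, against -0.04 for all genes. The share of all genes below 0 was not counted. Cultures differed in the level of the whole set, so the signs of its members are not separate results. These medians depended on single cultures: leaving out 1 gave -0.84 (without M3) to -0.28 (without M4) for mitotic members and -0.56 (without M3) to -0.035 (without D4) for S-phase members. Cdc20 stood at 7.22, 10.9 and 8.80 RPKM in M2, M3 and M4 and at 13.3, 18.7, 15.1 and 16.7 RPKM in D3 to D6, without overlap (log2 difference -0.81, SE 0.24, adjusted p = 0.2). Against all 7 DMSO cultures with the name series as a covariate it passed, at -0.80 (adjusted p = 0.0271), where 2.47% of all genes did and 0.937% were lower. Mki67 stood at 12.9, 30.5 and 17.5 RPKM with MPH and at 34.5, 40.2, 24.7 and 35.7 RPKM with DMSO, where M3 overlapped the DMSO range (-0.79, SE 0.28, adjusted p = 0.344). Cenpe had a log2 difference of -1.07 (SE 0.44, adjusted p = 0.553) and Tpx2 one of -0.62 (SE 0.23, adjusted p = 0.421). Pcna, at 96.8 ± 21.8 and 114 ± 20.9 RPKM, and Mcm3 had log2 differences of -0.24 and -0.40 (adjusted p = 1).

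Cenpa was 1 of the 2 mitotic members above 0 in the comparison of MPH with DMSO at 0 h. It stood at 29.9, 50.8 and 33.0 RPKM in M2, M3 and M4 and at 18.6, 29.7, 18.7 and 24.97 RPKM in D3 to D6, a log2 difference of 0.70 (SE 0.29, adjusted p = 0.546). These groups did not overlap, but r1, a DMSO culture outside this comparison, stood at 35.2 RPKM. Cdc20 and Cenpa were the 2 members whose groups did not overlap at 0 h, against 7.54% of all genes. At 1 h Cenpa stood at 35.3, 45.3 and 18.8 RPKM with MPH and at 16.7, 27.5, 15.5 and 17.3 RPKM with DMSO, where the library labelled M4 lay among the DMSO values (0.72, adjusted p = 1). Without that library the log2 difference was 1.08 (adjusted p = 0.0727). At 2 h it stood at 28.6, 35.9 and 25.1 RPKM with MPH and at 15.2, 20.4, 11.8 and 14.0 RPKM with DMSO, without overlap (0.95, SE 0.29, adjusted p = 0.152). Against all 7 DMSO cultures it passed at 2 h, at 0.95 (adjusted p = 0.0153), where 3.91% of all genes did and 1.85% were higher.

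**Figure D5:**
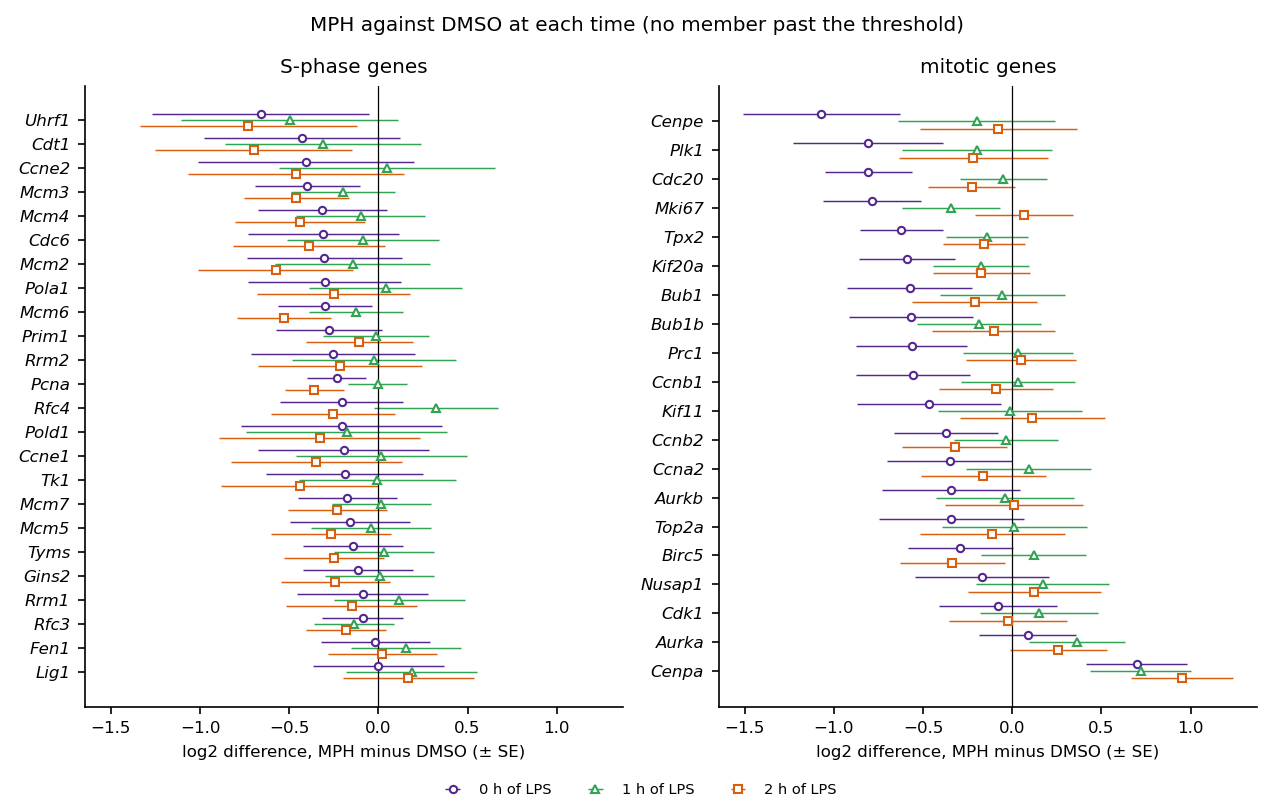
Log2 difference of each member between MPH (M2 to M4) and DMSO (D3 to D6) cultures at 0, 1 and 2 h of LPS. At 0 h 41 of 44 members lay below 0, where the median of all genes was -0.04 and their share below 0 was not counted. Cenpa lay above 0 at each time, at 0.70, 0.72 and 0.95. No member passed the test.

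At 1 h of LPS 0 of 44 members differed between MPH and DMSO in the test, where 0% of all genes did (327 genes had an unadjusted p under 0.05), and none had groups without overlap, against 1.48% of all genes. The medians were -0.01 for S-phase and -0.02 for mitotic members, and without D4 0.21 and 0.20. Aurka, Rfc4 and Uhrf1 had log2 differences of 0.36, 0.32 and -0.50 (adjusted p = 1). At 2 h 0 of 44 members passed, where 0.869% of all genes did. S-phase members had a median of -0.30, with 22 of 24 below 0, and mitotic members one of -0.10, against -0.02 for all genes. Leaving out 1 culture gave -0.52 (without M3) to -0.115 (without D4) for S-phase members. For mitotic members it gave -0.41 without M3 and turned the median to 0.12 without D4, 0.12 without M4 and 0.02 without M2. Pcna stood at 72.6, 74.2 and 58.1 RPKM with MPH and at 88.6, 96.1, 80.1 and 85.2 RPKM with DMSO (-0.36, SE 0.16, adjusted p = 0.508). Cdt1, at 4.76 ± 1.46 and 7.95 ± 1.76 RPKM (-0.70, SE 0.55, adjusted p = 0.919), was the other S-phase member without overlap, and with Cenpa these were 3 members, against 9.5% of all genes. For Cdt1 this held only against D3 to D6, since r1, a DMSO culture outside this comparison, stood at 2.68 RPKM. Mcm6, at 24.5 ± 8.39 and 34.8 ± 8.95 RPKM, and Birc5 overlapped (-0.53 and -0.34, adjusted p = 0.6 and 0.975).

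Markers of neutrophils, another cell that bone marrow can give, had sums above the DMSO median in each MPH library, but the ranges overlapped. Of 10 such markers 7 reached 1 RPKM in a library, and their sum was 48.0 to 57.8 RPKM in MPH cultures at 0 h and 11.9 to 53.1 RPKM in the 7 DMSO cultures. At 2 h the sums were 68.4 to 93.1 RPKM and 13.2 to 95.9 RPKM. Without a block, 0 of 7 tested markers passed between MPH and DMSO at 0, 1 or 2 h. With libraries of a shared number as a block, 1 passed as higher at 0 h. The markers went different ways in level. S100a9, S100a8 and Ngp reached 49.8, 34.4 and 11.9 RPKM, and Mmp8, Csf3r and Ltf reached 8.43, 4.47 and 4.13 RPKM. Retnlg, Ly6g and Cxcr2 were at most 0.466, 0.356 and 0.203 RPKM. The part of neutrophils in the values of the members was not tested.

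Other genes of the same pathways, from a list chosen with results of these data known, were read beside the members. Under DMSO at 2 h of LPS, 27 of 36 other replication genes fell and none rose (36 fell with the block), with a median log2 difference of -0.55. In the same fits 43.6% of all genes were lower without the block and 62% with it. Examples were E2f2, an E2F factor of S-phase entry (8.005 ± 0.770 to 1.98 ± 1.06 RPKM, -1.87), the origin-firing gene Gins3 (-1.48) and Dtl (-1.92), which acts in the destruction of Cdt1 protein. Of 40 other mitotic genes 23 (57.5%) fell and 1, Ckap2l, rose (36 and 2 with the block), with the phosphatase gene Cdc25b at -1.13 and the kinesin gene Kif23 at -0.98. Under MPH at 2 h, 6 of 36 other replication genes (16.7%) fell, a share near the 14.7% of all genes, and of the other mitotic genes Cdc25b and Cdkn3 fell and Ckap2l rose by 1.02 on the log2 scale. In the difference of responses at 2 h with the block, 3 other mitotic genes passed as higher under MPH, where 0.762% of all genes did: Cenpf (1.12, adjusted p = 0.00174), Aspm (0.85) and Ckap2l.

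Of 17 tested genes that regulate or brake the G1 phase, 4 rose (23.5%) and 7 fell (41.2%) under DMSO at 2 h of LPS, where 10.5% of all genes were higher and 43.6% lower. Cdkn1a, which encodes the kinase inhibitor p21, rose from 74.0 ± 11.6 to 284 ± 68.3 RPKM (log2 difference 1.91, SE 0.15, adjusted p = 5.82e-09), and the growth-restraining genes Btg1 and Btg2 rose by 1.66 and 1.31, as did the G1 kinase gene Cdk6 (0.81). At 0 h these 3 genes were already higher with MPH: Cdkn1a stood at 161 ± 16.6 RPKM (SD, n = 3) against 80.8 ± 5.73 RPKM (SD, n = 4), a log2 difference of 0.99 (adjusted p = 0.00728). Btg2 and Btg1 had log2 differences of 2.02 and 1.56 there (adjusted p = 0.000354 and 0.0376). The response to 2 h of LPS was smaller under MPH for Cdkn1a and Btg2, with differences of -1.51 and -1.998 (adjusted p = 0.0216 and 0.0354). Without a block, none of the other replication or other mitotic genes passed between MPH and DMSO at 0 h, where 0.869% of all genes did. With libraries of a shared number as a block, 2 of 40 other mitotic genes passed as lower. The share of all genes in that fit is not given.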

How the data were processed

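RNA sequencing of 30 libraries gave a table of RPKM values, computed by the authors and deposited with 1 row for each of 44401 transcripts. Per the submitters' processing notes, which give no versions, the tools were FastQC, cutadapt, HISAT2 and SAMtools and the build mm9. How reads were counted is not given in the sources used here. Members, lists, tests and alternatives were chosen with earlier results of these data known.

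For each symbol the row with the highest mean entered, as log2(RPKM + 0.5), and a fit tested those genes that reached 1 RPKM in 3 or more of its libraries. Limma-trend (limma 3.58.1, R 4.3.3) was used with Benjamini-Hochberg adjustment over all genes and a threshold of 0.05, and was tested on simulated data. Each adjusted p comes from limma, and each ± is an SD over libraries. Comparisons with MPH and the responses under MPH came from M2 to M4 with D3 to D6 (21 libraries, 10239 genes, 1 mean per treatment and time). The response under DMSO came from all 21 libraries of that vehicle (10212 genes), where the series of culture names (D, UKD, r) was a covariate.

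Culture names pair libraries across times: deviations from group means correlated in 30 of 30 pairs of libraries of a culture (r = 0.625 to 0.913, 10355 genes), so fits with the culture as a block are given where they change a call. No 2 libraries were identical. Depth was 5.38 to 92.12 M approximate reads (median 41.3 M), which limits low values most in the 3 libraries under 10 M.

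Named genes were members past the threshold (the 10 with the smallest p where there were more), the 2 per list with the smallest p where none passed, the 2 per list with the highest mean, and up to 4 per other list; further members are given so that all 44 are accounted for. Members printed with sequence, and Cenpf, Aspm, Ckap2l and Cdk6, were chosen after their values were seen. Sequences were read from RefSeq promoters (GRCm38.p6), a build other than that of the values. Alternatives were another pseudocount, filter, scaling or row choice, other sets of libraries, and the removal of each culture.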

Additional observations from a re-analysis of the deposited data

Results flagged for a closer look

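The cyclin E genes were far higher in culture D4 than in the other 6 DMSO cultures: Ccne2 stood at 16.3 RPKM at 0 h and 14.2 RPKM at 1 h, and Ccne1 at 12.8 RPKM at 1 h, each with a gap to the next culture that passed Dixon's criterion. These were 3 of 138 sets of values looked at (2.17%), where chance flags about 1 in 20. D4 was lower at 2 h than at 0 h in both genes, as were the other cultures. Whether D4 differed in its cycling cells was not tested.

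The responses of Mki67 and Cenpe to 2 h of LPS differed between MPH and DMSO cultures in the fit with the culture as a block, by 0.85 and 0.99 on the log2 scale, and in neither gene without the block (adjusted p = 1). Within cultures, Mki67 differed from 0 h by 0.76 to 1.21 in the 3 MPH cultures and by -0.16 to 0.29 in the 7 DMSO cultures. Cenpe differed by 0.13 to 1.08 in MPH cultures and by -0.64 to -0.08 in DMSO cultures. Both genes had their low values in the MPH libraries of 0 h, which enter this difference and the comparison of MPH with DMSO at 0 h alike, so the 2 results are not independent.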

How the results depend on the processing

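Counts are of members past the threshold in either direction, S-phase then mitotic where both are given. Some mitotic counts hold members that rose. These were 1 of the 6 with scaling at 2 h under DMSO and 2 of the 8 with the block at 2 h under MPH. Among the 10 with the block at 1 h under DMSO, 1 rose. The share of all genes that passed moved as well, so a change of count cannot be told from a change over all genes. Under DMSO it was 54.1% at 2 h, 37% with scaling and 76.9% with the block. In the same order it was 20.3%, 11.9% and 53.5% at 1 h, and 22%, 19.6% and 49.2% from 1 to 2 h. Under MPH at 2 h it was 20.7%, 13.8% and 54.5%. With block and scaling together it was 27.6% at 1 h and 46.7% from 1 to 2 h under DMSO. Under MPH it was then 9.68% at 1 h and 40% at 2 h, and 1.52% for the difference of responses at 2 h. With the block without the 1 h library labelled M4 these 3 shares were 12.5%, 56% and 2.35%. The share is not given for fits without a filter, without the covariate, with D3 to D6 only or of the compared groups alone. No log2 difference of a named member that passed, with or without a setting, changed sign, but 8 of 20 list medians did in at least 1 setting, and the turns not given above were at 1 h between MPH and DMSO (up to 0.33 without the shallow libraries). At 2 h under DMSO, 16 and 12 became 6 and 6 with median-of-ratios scaling, 4 and 4 with D3 to D6 only, and 19 mitotic with the replicate block. At 1 h under DMSO, 0 and 1 became 22 and 10 with the block and 3 and 4 with block and scaling; with scaling alone the 1 mitotic call was Mki67, higher, in place of Kif20a, and it was lost (0) without a filter, without the covariate and with D3 to D6 only. From 1 to 2 h, 2 and 5 became 18 and 19 with the block and 15 and 12 with block and scaling. They became 0 and 0 without the shallow 1 h libraries or with D3 to D6 only and 1 and 0 without the covariate, and the mitotic count was 3 without a filter and 3 with scaling. Under MPH at 2 h, 4 and 1 became 0 and 0 without a filter, 1 and 0 in a fit of the compared groups alone and 23 and 8 with the block. They became 15 and 7 with block and scaling and 23 and 11 with the block without the 1 h library labelled M4, and the S-phase count was 1 with scaling. At 1 h under MPH the mitotic count of 0 became 5 with the block, 9 with block and scaling, and 2 with the block without that library. For the difference of responses at 2 h the mitotic count of 0 became 2, 3 and 5 in the same order.

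Leaving out each culture in turn, with and without the replicate block, gave 0 to 21 S-phase and 0 to 11 mitotic members at 1 h under DMSO, 10 to 24 and 9 to 19 at 2 h, and 1 to 20 and 1 to 19 from 1 to 2 h. Under MPH it gave 0 to 6 mitotic members at 1 h and 0 to 24 and 0 to 10 at 2 h, and 0 to 3 mitotic members for the difference of responses at 2 h. Without the block the ranges at 2 h were 10 to 21 and 9 to 16 under DMSO and 0 to 3 and 0 to 1 under MPH. Shares of all genes in the fits that left out a culture are not given, so these ranges cannot be set against them. The cause of these shifts was not tested.

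Between MPH and DMSO, 1 mitotic member passed at 0 h with a replicate block on shared numbers (Cdc20) and 1 with all 7 DMSO cultures, and 1 at 2 h with all 7. Libraries of DMSO and MPH that share a number did not deviate together (6 pairs, r = -0.645 to -0.358), so that block rests on a number alone. Depth limits the genes of few reads most, such as Rfc4 in the 1 h library of D6, at about 21 reads. The reads behind Cdc6 were not estimated. The alternatives in the pairing of times and of scaling with the block were partly chosen after seeing the data. The 3 MPH cultures, 1 drug dose and short times limit what these comparisons can show.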

Other observations

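The balance between the lists, taken as the mean of the mitotic genes minus the mean of the S-phase genes on the log2(RPKM + 0.5) scale, ran from -0.28 to -0.003 in the 3 MPH libraries of 0 h and from 0.36 to 0.61 in those of 2 h, without overlap. In the 7 DMSO cultures it ran from -0.39 to 0.46 at 0 h and from -0.02 to 0.55 at 2 h, with broad overlap. Of all genes, 33.4% had no overlap between 0 h and 2 h under MPH, and 16.4% had none under DMSO. With 3 libraries per group in one case and 7 in the other, the overlaps cannot be set against each other. These are values with no test.

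Among G1 genes, Myc, a driver of growth, rose at 1 h of LPS under DMSO from 5.02 ± 1.51 to 18.8 ± 7.48 RPKM (SD, n = 7; log2 difference 1.78, limma adjusted p = 0.000117) and fell to 6.40 ± 4.36 RPKM at 2 h. Btg2 rose at 1 h from 1.82 ± 0.929 to 23.98 ± 5.56 RPKM, a log2 difference of 3.47, and fell by 2.17 between 1 and 2 h. Cdk6, a kinase of G1, stood at 3.84 ± 0.766 RPKM with MPH (n = 3) and 9.24 ± 2.38 RPKM with DMSO (n = 4) at 2 h, a log2 difference of -1.15 (limma adjusted p = 0.0365). Cdk6 had risen between 1 and 2 h of LPS under DMSO, from 4.26 ± 1.09 to 10.2 ± 2.43 RPKM (n = 7, limma adjusted p = 3.86e-05).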
